A study of Mus musculus with 45 samples.

Results

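Kinesins are motor proteins that walk along microtubules or take them apart at their ends. The genes described here are 10 kinesins that work on the mitotic spindle: Kif11, Kif15, Kif4, Kif22, Kif2c, Kif18a, Kif18b, Kif23, Kif20a and Kif20b. They were matched by Ensembl ID to the deposited gene counts, where all 10 were found among 19966 genes, and all 10 were among the 14090 genes that passed the filter on low counts.

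Liver RNA was sequenced from Uhrf1hepKO mice (KO, by its name a knockout of Uhrf1 in hepatocytes) and from wild-type mice (WT), all of strain C57Bl/6. UHRF1 binds newly replicated DNA and helps to keep its methylation. The mice were 8 to 12 weeks old at partial hepatectomy, the removal of part of the liver, after which the remaining lobes regrow. Each genotype was sampled before surgery (baseline), then at 24, 30, 40, 48 and 96 h, and again after 7 days and after 4 weeks, which gives 16 groups and 45 libraries (23 KO and 22 WT). KO at 7 days, WT at 30 h and WT at 48 h held 2 libraries each, and the other 13 groups held 3. The driver that deletes Uhrf1 is not given in the sources used here, nor is what the mark "40hrs" in the column names of the baseline libraries stands for, so that it is unknown whether baseline and 40 h libraries share mice. Nothing in the labels says whether each library of a group is a mouse of its own, so p-values here cover only the spread among libraries, technical spread included.

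Adult hepatocytes rarely divide, and partial hepatectomy makes many of them enter the cell cycle and divide. Most kinesins of the spindle are made in G2 and mitosis and are low in resting cells. Kif11 slides the poles of the spindle apart, and Kif15 can share that task. Kif4 and Kif22 are motors that ride on chromosome arms, Kif2c, Kif18a and Kif18b act on the plus ends of microtubules, and Kif23, Kif20a and Kif20b work at the central spindle and the midbody, where the dividing cell is cut.

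Because the 10 genes moved together, their promoters were searched for the sequence elements known from genes of G2 and mitosis. These are the CHR element TTTGAA (a rarer form is TTCGAA), a binding site of the complexes that silence and later activate such genes, and the CCAAT box, a site of the factor NF-Y. RefSeq promoter windows (GRCm38.p6) reach from 250 bases before to 50 bases after the transcription start and were given for 9 of the 10 genes. Both strands were searched. TTTGAA and CCAAT can share a base at their ends, which was the case in 0 of the 9 windows and in 47 of all 32851 windows. TTTGAA was found in 8 of the 9 windows (88.9%), against 17.9% of all 32851 windows. CCAAT was found in 5 of the 9 (55.6%), against 37.4% of all windows, and 5 of the 9 held both, against 6.95% of all windows. TTCGAA was found in 0 of the 9 and in 1.56% of all windows. In 22 windows from 18 other genes of the spindle and its kinases, TTTGAA was found in 59.1%, CCAAT in 81.8% and both in 59.1%. In 17 windows from 15 genes of kinesins that carry cargo, TTTGAA was found in 11.8%, CCAAT in 41.2% and both in 5.88%. The stretches below run from 80 bases before the start to 29 bases after it, in the direction of the gene. They are shown because the matches lie close to the start in most of these genes, and Kif18a is shown as the gene with no match. Capitals mark TTTGAA or CCAAT, or their reverse complements TTCAAA and ATTGG.
Kif11 (chr19:37376302-37376411, plus strand): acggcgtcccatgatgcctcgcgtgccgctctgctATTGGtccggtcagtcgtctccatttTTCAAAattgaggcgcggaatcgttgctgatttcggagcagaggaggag
Kif15 (chr9:122951001-122951110, plus strand): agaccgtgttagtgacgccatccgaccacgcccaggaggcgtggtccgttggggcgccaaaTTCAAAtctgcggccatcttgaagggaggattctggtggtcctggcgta
Kif22 (chr7:127042391-127042500, minus strand): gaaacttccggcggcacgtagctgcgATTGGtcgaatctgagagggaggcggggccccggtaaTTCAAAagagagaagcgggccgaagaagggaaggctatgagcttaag
Kif18b (chr11:102925095-102925204, minus strand): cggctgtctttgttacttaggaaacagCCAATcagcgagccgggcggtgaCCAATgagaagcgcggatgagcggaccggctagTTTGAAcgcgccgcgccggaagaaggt
Kif23 (chr9:61946770-61946879, minus strand): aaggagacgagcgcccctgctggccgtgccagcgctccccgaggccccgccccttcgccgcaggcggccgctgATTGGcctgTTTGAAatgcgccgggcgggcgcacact
Kif20b (chr19:34922278-34922387, plus strand): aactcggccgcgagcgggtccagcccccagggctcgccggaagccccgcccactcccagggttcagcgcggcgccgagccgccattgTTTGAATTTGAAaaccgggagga
Kif18a (chr2:109280658-109280767, plus strand): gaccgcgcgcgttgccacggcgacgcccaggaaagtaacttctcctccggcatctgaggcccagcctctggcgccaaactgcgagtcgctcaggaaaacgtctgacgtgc
Counted from the start, the first base of the TTTGAA match lay 19 bases before it in Kif11 and in Kif15 and 17 bases before it in Kif22. The match lay after the start in Kif18b (3 bases), Kif23 (2 bases) and Kif20b (7 and 13 bases), and also in Kif4 (19 bases). Kif15 and Kif22 each held a further match, 234 and 215 bases before the start. In Kif2c the match lay 103 bases before the RefSeq start, which itself lies 3867 bases inside the annotated gene. A match of letters is a description of the sequence and not evidence of binding.

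In the mm10 annotation (GENCODE M21), the pole-separating motors were Kif11 (ENSMUSG00000012443, chr19:37376403-37421859, plus strand) and Kif15 (ENSMUSG00000036768, chr9:122951046-123018733, plus). The chromosome arm motors were Kif4 (ENSMUSG00000034311, chrX:100625737-100727214, plus) and Kif22 (ENSMUSG00000030677, chr7:127027729-127042471, minus). Among the plus-end regulators, Kif2c (ENSMUSG00000028678) lay at chr4:117159639-117182639 (minus), Kif18a (ENSMUSG00000027115) at chr2:109280738-109341747 (plus) and Kif18b (ENSMUSG00000051378) at chr11:102905529-102925124 (minus). The motors of cytokinesis were Kif23 (ENSMUSG00000032254, chr9:61915905-61946774, minus), Kif20a (ENSMUSG00000003779, chr18:34624613-34633277, plus) and Kif20b (ENSMUSG00000024795, chr19:34922361-34975745, plus). For 4 of them a counted gene overlaps on the opposite strand: Pdzd11 with Kif4 over 832 bases, Mettl15 with Kif18a over 11 bases, Gm26668 with Kif18b over 19596 bases and Cdc23 with Kif20a over 2327 bases. These lengths are of whole gene spans, introns included, and the exons of Kif18b cover 3572 bases. The strand setting of the counting is not given in the sources used here. Whether reads from such stretches were kept apart is therefore unknown.

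Libraries held 12851359 to 23133501 counts, and levels are given in CPM, gene counts scaled to a common library total with TMM factors. Uhrf1 (ENSMUSG00000001228, chr17:56303321-56323486, plus strand) was counted over the whole gene. It stood at 8.87 to 15.2 CPM in KO and 28.0 to 36.5 CPM in WT at 30 h, at 3.59 to 8.95 CPM in KO and 27.5 to 107 CPM in WT at 40 h, and at 3.69 to 7.37 CPM in KO and 19.2 to 19.9 CPM in WT at 48 h. At baseline and 4 weeks it was at most 0.644 CPM in any library and could not check the labels. At 96 h it was 0.27 to 2.07 CPM in libraries labelled KO and 0.148 to 0.792 CPM in those labelled WT. Of genes that separate KO from WT at all other times, Bglap3 was at 8.83 to 29.4 CPM in libraries labelled KO and 9.38 to 28.4 CPM in those labelled WT at 96 h, against 3.18 to 17.4 CPM in the 20 other KO libraries and at most 1.53 CPM in the 19 other WT libraries. Rhox5 was likewise at 2.86 to 9.58 CPM in libraries labelled WT at 96 h and at most 0.59 CPM in the other WT libraries. In these genes the libraries labelled WT at 96 h go against their label, and results at 96 h are given by label only.

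At rest the kinesin genes were close to silent in both genotypes. Summed over the 10 genes, the level was 3.35 to 4.02 CPM in KO and 3.82 to 4.08 CPM in WT at baseline, and Kif11 was the only member to exceed 1 CPM in any baseline library (0.915, 0.989 and 1.03 CPM in KO, 0.73, 0.787 and 1.07 CPM in WT). Kif18b, which shortens astral microtubules, had 0 to 2 counts in every baseline library. No member was called different between the genotypes at baseline by edgeR (0.0852% of all genes were, in either direction). Kif15 had an unadjusted p under 0.05 there, from 1 to 8 counts in KO and 0 to 1 count in WT, and DESeq2 called 0. At 24 h the summed level was 3.13 to 5.22 CPM in KO and 2.98 to 7.31 CPM in WT. No member had risen over baseline by then, by edgeR, by DESeq2 or at an unadjusted p under 0.05, while 11.5% of all genes in KO and 10.5% in WT had (edgeR, adjusted p under 0.05). Neither was any member different between the genotypes at 24 h by these 3 criteria (0.0426% of all genes were called).

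**Figure D1:**
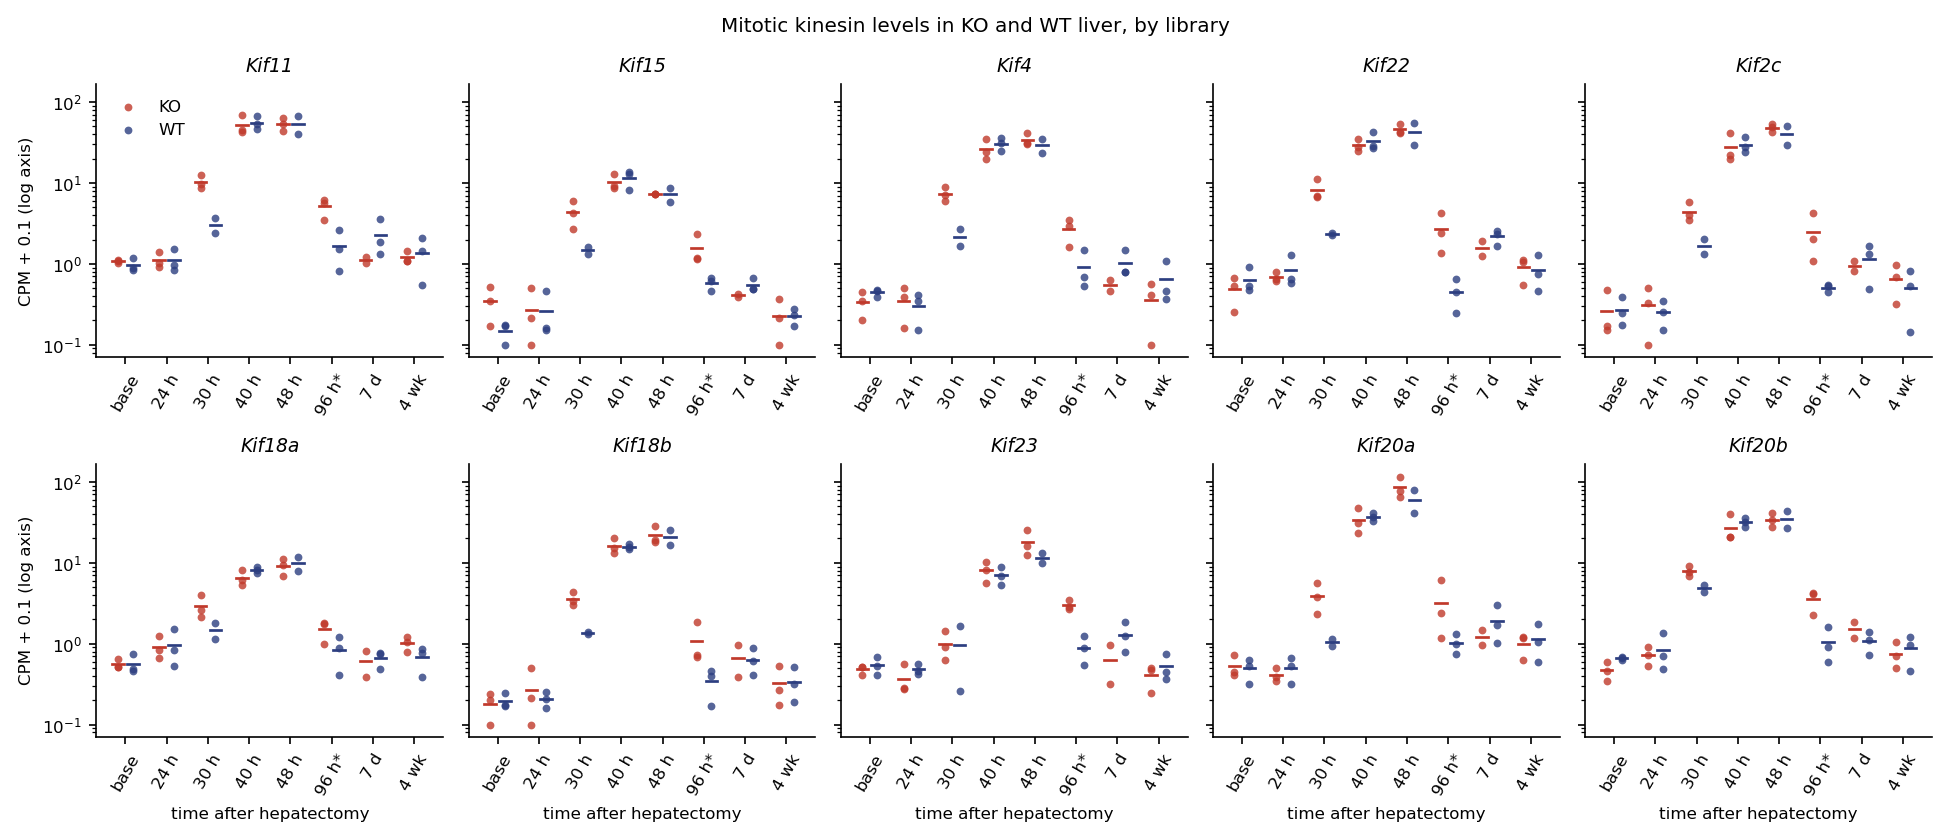
Level of each kinesin gene in every library, in CPM + 0.1 on a log axis, by time after hepatectomy (categories, not to scale). Red points are KO and blue points WT libraries, bars are group means, and the asterisk marks 96 h, where the libraries labelled WT go against their label. All 10 genes are low at baseline and 24 h and highest at 40 or 48 h, and at 30 h every KO library lies above every WT library in 9 of the 10 panels.

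The genes switched on between 24 and 48 h in both genotypes. At 30 h, edgeR called 9 of the 10 higher than baseline in KO (17.0% of all genes were) and 8 of 10 in WT (9.33% of all genes). The exception in KO was Kif23, at 0.798, 0.527 and 1.35 CPM, and those in WT were Kif23 and Kif20a; Kif20a was at 1.05 and 0.848 CPM. By 40 h all 10 were higher than baseline, by log2 3.78 to 7.52 in KO (17.9% of all genes were called higher) and 3.94 to 7.66 in WT (19.2%). The same held at 48 h, with log2 4.27 to 8.16 in KO (19.0%) and 4.36 to 7.81 in WT (15.6%). Contrasts of one genotype share its baseline libraries, and those libraries held few counts of these genes, so the size of a fold depends on a handful of reads. The steps from time to time do not use the baseline. From 24 to 30 h, edgeR called 9 of 10 higher in KO (6.27% of all genes) and 5 of 10 in WT (2.18%), namely Kif15, Kif4, Kif2c, Kif18b and Kif20b. From 30 to 40 h it called all 10 higher in KO (8.62%), by log2 1.20 for Kif18a to 3.14 for Kif23 and Kif20a. In WT it called all 10 over that step too (8.07%), by log2 2.52 for Kif18a to 5.30 for Kif20a. In bulk tissue, more dividing cells and more RNA per dividing cell cannot be told apart.

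The peak came at 40 to 48 h. Kif11, the motor that separates the spindle poles, stood at 45.6, 42.7 and 69.1 CPM in KO and 66.7, 47.0 and 52.8 CPM in WT at 40 h. At 48 h its libraries overlapped with those of 40 h in both genotypes, at 44.1, 62.9 and 53.3 CPM in KO and 67.1 and 40.0 CPM in WT. Kif15, the other motor of this kind, was the only member with its highest group mean at 40 h in both genotypes. Its level was 8.61, 12.7 and 9.1 CPM in KO and 12.8, 8.06 and 13.4 CPM in WT at 40 h. At 48 h it was 7.25, 7.27 and 7.22 CPM in KO and 8.65 and 5.76 CPM in WT, or 0.72 and 0.63 times the 40 h mean. Every KO library at 48 h lay below every KO library at 40 h, while the WT libraries of the 2 times overlapped, and edgeR called the step in neither genotype.

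The chromosome arm motors and the plus-end regulators had their highest group mean at 48 h, apart from Kif4 in WT, which had it at 40 h. Kif22 had 43.0, 53.0 and 41.8 CPM in KO and 55.3 and 29.4 CPM in WT at 48 h. Kif4 had 30.5, 40.9 and 31.4 CPM in KO and 35.2 and 23.2 CPM in WT. Kif2c, which takes apart microtubules at centromeres and corrects faulty attachments, had 42.5, 53.4 and 49.1 CPM in KO and 50.7 and 29.4 CPM in WT. Their 48 h means were 1.57 (Kif22), 1.32 (Kif4) and 1.73 (Kif2c) times the 40 h means in KO and 1.3, 0.96 and 1.35 times in WT. Of the kinesins that limit chromosome swings and astral microtubules, Kif18a had 6.74, 11.2 and 9.27 CPM in KO and 11.7 and 7.78 CPM in WT at 48 h, and Kif18b had 18.2, 28.2 and 19.2 CPM in KO and 25.7 and 16.3 CPM in WT. No step from 40 to 48 h was called for these 5 genes in either genotype, although every KO library of 48 h lay above every KO library of 40 h for Kif22 (log2 0.65 ± 0.28, edgeR adjusted p = 0.176) and Kif2c (log2 0.79 ± 0.35, adjusted p = 0.192).

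Among the motors of cytokinesis, Kif20a and Kif23 rose again from 40 to 48 h in KO. Kif20a, which carries the chromosomal passenger complex to the central spindle, had 30.6, 23.4 and 47.2 CPM in KO and 41.7, 37.1 and 33.0 CPM in WT at 40 h. At 48 h it had 66.0, 116 and 76.3 CPM in KO and 79.3 and 40.8 CPM in WT. As for Kif22 and Kif2c, all KO libraries of 48 h lay above all those of 40 h, and so they did for Kif23, the motor of the centralspindlin complex, with 12.3, 25.3 and 16.1 CPM at 48 h against 8.06, 5.56 and 10.2 CPM at 40 h. That makes 4 of the 10 members in KO, against 13.7% of all genes. In KO, edgeR called both higher at 48 h than at 40 h, Kif20a by log2 1.35 ± 0.34 (SE, adjusted p = 0.0219) and Kif23 by log2 1.17 ± 0.34 (adjusted p = 0.0433), and 2.63% of all genes were called higher. In WT it called 0 of 10 (0.0426% of all genes), with 0 at an unadjusted p under 0.05 and 0 by DESeq2, and the step was log2 0.69 ± 0.37 for Kif20a and 0.74 ± 0.38 for Kif23. The WT group at 48 h has 2 libraries, and no test compared the step between the genotypes. The calls in KO depend on single libraries. Without KO 40 h replicate 1, KO 40 h replicate 2 or KO 48 h replicate 2, edgeR called neither gene (Kif20a at log2 1.28, 1.14 and 1.08, Kif23 at 1.18, 0.97 and 0.83), and without KO 48 h replicate 3 it called Kif20a only. Kif20b, a motor needed for a timely end of cytokinesis, was already at 6.81, 7.51 and 9.05 CPM in KO and 5.23 and 4.24 CPM in WT at 30 h. It had reached 22.9% of its highest group mean by then in KO and 13.5% in WT, against 4.4% and 1.6% for Kif20a. By this measure Kif15 (41.7%) and Kif18a (30.9%) were further along than Kif20b in KO, and Kif18a (14.1%) in WT.

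**Figure D2:**
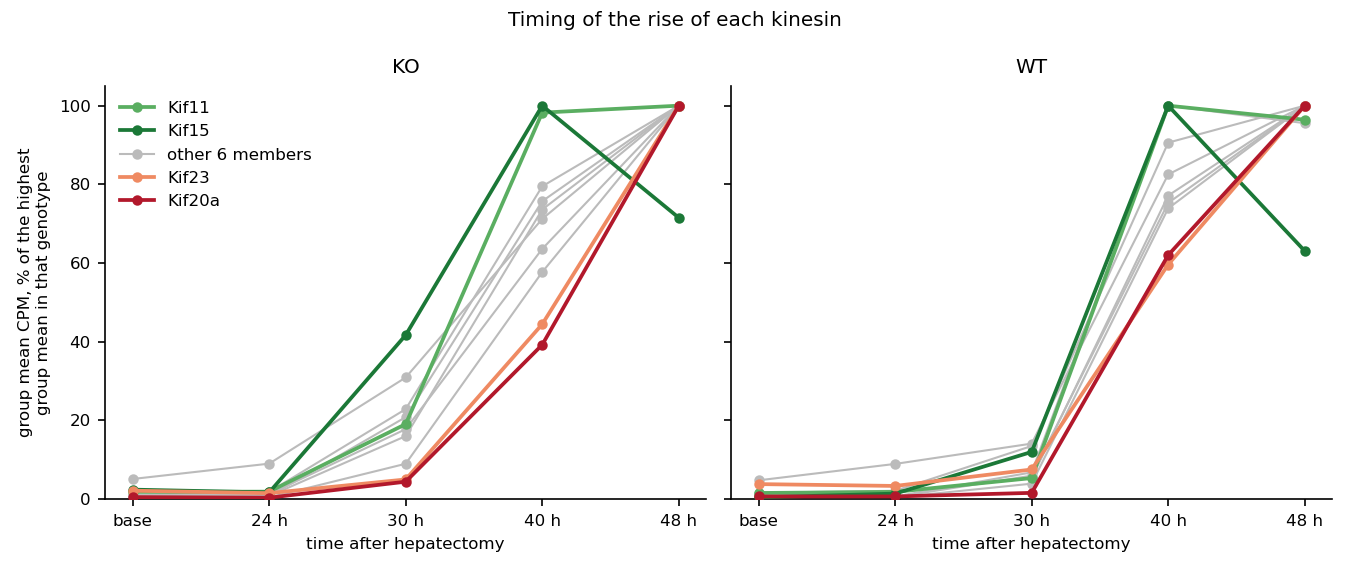
Group mean CPM of each kinesin gene from baseline to 48 h, as a percentage of its highest group mean in that genotype, in KO (left) and WT (right). Kif15 is at 71.5% in KO and 63.1% in WT at 48 h, while Kif20a is at only 39.2% in KO and 62.0% in WT at 40 h; grey lines are the 6 members not named in the legend.

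The proportions of the kinesin transcripts differed between these times. The ratio of Kif20a to Kif15 counts in a library needs no scaling between libraries. At 30 h it was 1.44, 0.531 and 0.93 in KO and 0.684 and 0.7 in WT. At 40 h it was 3.56, 1.84 and 5.19 in KO and 3.25, 4.6 and 2.47 in WT, and at 48 h 9.11, 15.9 and 10.6 in KO and 9.17 and 7.08 in WT. In each genotype the libraries of the 3 times did not overlap, and at each of these times KO and WT did. The ratio of Kif20a to Kif11 was 0.26 to 0.441 in KO and 0.289 to 0.368 in WT at 30 h, 0.548 to 0.683 in KO and 0.625 to 0.789 in WT at 40 h, and 1.43 to 1.84 in KO and 1.02 to 1.18 in WT at 48 h. Here too the 3 times did not overlap within a genotype, and at 48 h KO lay above WT. The ratio of Kif23 to Kif15 was 0.125 to 0.309 in KO and 0.105 and 1.3 in WT at 30 h, 0.438 to 1.13 in KO and 0.387 to 0.83 in WT at 40 h, and 1.7 to 3.48 in KO and 1.54 to 1.69 in WT at 48 h. In WT its 30 h values lay on both sides of those at 40 h, and at 48 h KO lay above WT by a narrow margin. These ratios were chosen after the timing of both genes had been seen and were not tested.

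Set against 12 genes of DNA replication (among them Mcm2, Mcm5, Mcm6, Pcna and Rrm2), the kinesins rose in proportion from 30 to 48 h. At 30 h the summed replication genes stood at 894 to 1080 CPM in KO and 397 to 530 CPM in WT, while the kinesins summed to 44.7 to 67.7 CPM in KO and 18.0 to 20.8 CPM in WT. At 40 h the replication genes were at 730 to 1210 CPM in KO and 770 to 1610 CPM in WT, where their group mean was highest. The kinesins were then at 195 to 315 CPM in KO and 231 to 307 CPM in WT. At 48 h the replication genes were at 417 to 696 CPM in KO and 498 to 504 CPM in WT, and the kinesins at 298 to 439 CPM in KO and 229 to 390 CPM in WT. The kinesin sums of 40 and 48 h overlapped in both genotypes. The kinesin sum was 0.0444 to 0.0626 of the replication sum in KO and 0.0392 to 0.0454 in WT at 30 h. This proportion was 0.161 to 0.419 in KO and 0.149 to 0.3 in WT at 40 h, and 0.428 to 1.05 in KO and 0.46 to 0.775 in WT at 48 h. From 40 to 48 h the estimates of all 12 replication genes were negative in both genotypes. Their median was log2 -0.55 in KO and -1.21 in WT, against 0.008 and -0.024 over all genes. Of the 12, edgeR called 2 lower in KO and 4 in WT. Among them was Pcna, lower by log2 0.92 ± 0.21 in KO (adjusted p = 0.0113) and by 1.5 ± 0.24 in WT (adjusted p = 0.0042).

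**Figure D3:**
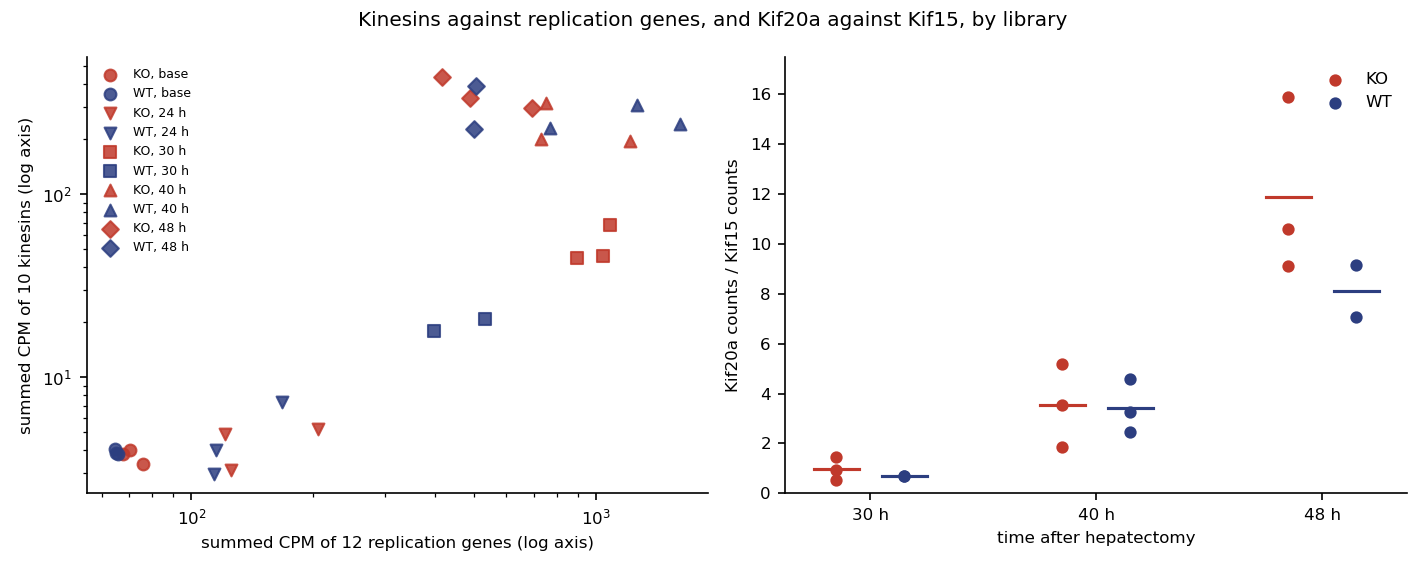
Left, the summed CPM of the 10 kinesins against the summed CPM of 12 replication genes, by library, from baseline to 48 h, both axes log. Right, Kif20a counts divided by Kif15 counts in each library at 30, 40 and 48 h, with bars at the group means; the ratio is under 1.5 in every library at 30 h and above 7 in every library at 48 h.

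At 30 h, early in the wave, 9 of the 10 genes had every KO library above both WT libraries, and 3 of them passed the test. Kif11 was at 9.53, 8.63 and 12.4 CPM in KO and 3.62 and 2.3 CPM in WT. Kif22 was at 6.62, 6.85 and 11.1 CPM in KO and 2.33 and 2.18 CPM in WT, and Kif4 at 5.82, 6.92 and 8.7 CPM in KO and 2.57 and 1.57 CPM in WT. For each of these 3 genes all KO libraries lay above both WT libraries. By edgeR, 3 of the 10 members were called higher in KO, against 0.873% of all genes, and 0 lower, against 0.0639%. They were Kif11 (log2 1.8 ± 0.38, 3.49-fold, adjusted p = 0.0162), Kif22 (log2 1.85 ± 0.39, 3.62-fold, adjusted p = 0.0162) and Kif4 (log2 1.8 ± 0.42, 3.49-fold, adjusted p = 0.0256).

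The other 7 members did not pass. Kif20a was at 3.71, 2.24 and 5.47 CPM in KO and 1.05 and 0.848 CPM in WT, a difference of log2 2.02 ± 0.59 (edgeR adjusted p = 0.0918). Kif15 was at 2.58, 4.21 and 5.88 CPM in KO and 1.53 and 1.21 CPM in WT (log2 1.62 ± 0.45, adjusted p = 0.0763), and Kif18b at 2.91, 3.29 and 4.29 CPM in KO and 1.29 and 1.21 CPM in WT (log2 1.48 ± 0.45, adjusted p = 0.109). Groups did not overlap for these genes either. Kif2c (log2 1.48 ± 0.53, adjusted p = 0.218), Kif18a (1.01 ± 0.41, adjusted p = 0.307) and Kif20b (0.72 ± 0.35, adjusted p = 0.441) also had every KO library above both WT libraries. In all, 9 of the 10 members had KO above WT without overlap, against 15.4% of all genes tested. The median difference over the members was log2 1.55, against 0.01 over all genes. Kif23 was the exception, with 0.798, 0.527 and 1.35 CPM in KO and 0.161 and 1.57 CPM in WT, from 2 and 26 counts in the 2 WT libraries (log2 -0.05 ± 0.54, adjusted p = 0.99). With 1 library left out its difference ran from log2 -0.81 to 2.43, so its direction turns on single libraries.

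These calls rest on few libraries. Leaving out WT replicate 3 left 0 members and 0 genes of any kind called, with Kif11 at log2 1.5, Kif22 at 1.81 and Kif4 at 1.47, and the lone WT library was then taken to vary like the other groups. Without KO replicate 3 or WT replicate 2, edgeR also called 0 members, at 1.64 and 2.14 for Kif11, 1.58 and 1.90 for Kif22 and 1.63 and 2.17 for Kif4. Without KO replicate 2, Kif4 was not called (log2 1.82), and without KO replicate 1, Kif15 was called as well (log2 1.89). DESeq2 called 6 members higher in place of 3, adding Kif15, Kif18b and Kif20a. Of the marker lists of other cell types, the 6 erythroid markers separated the genotypes at 30 h. They summed to 164 to 201 CPM in KO and 120 to 140 CPM in WT. At the next times the same sum separated them in the opposite direction. It was at most 174 CPM in KO and at least 178 CPM in WT at 40 h. At 48 h it was at most 150 CPM in KO and at least 169 CPM in WT. The part of these markers in the result at 30 h was not tested. The summed Kupffer, endothelial, stellate, lymphocyte, neutrophil and monocyte, cholangiocyte and hepatocyte markers overlapped between the genotypes at 30 h.

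**Figure D4:**
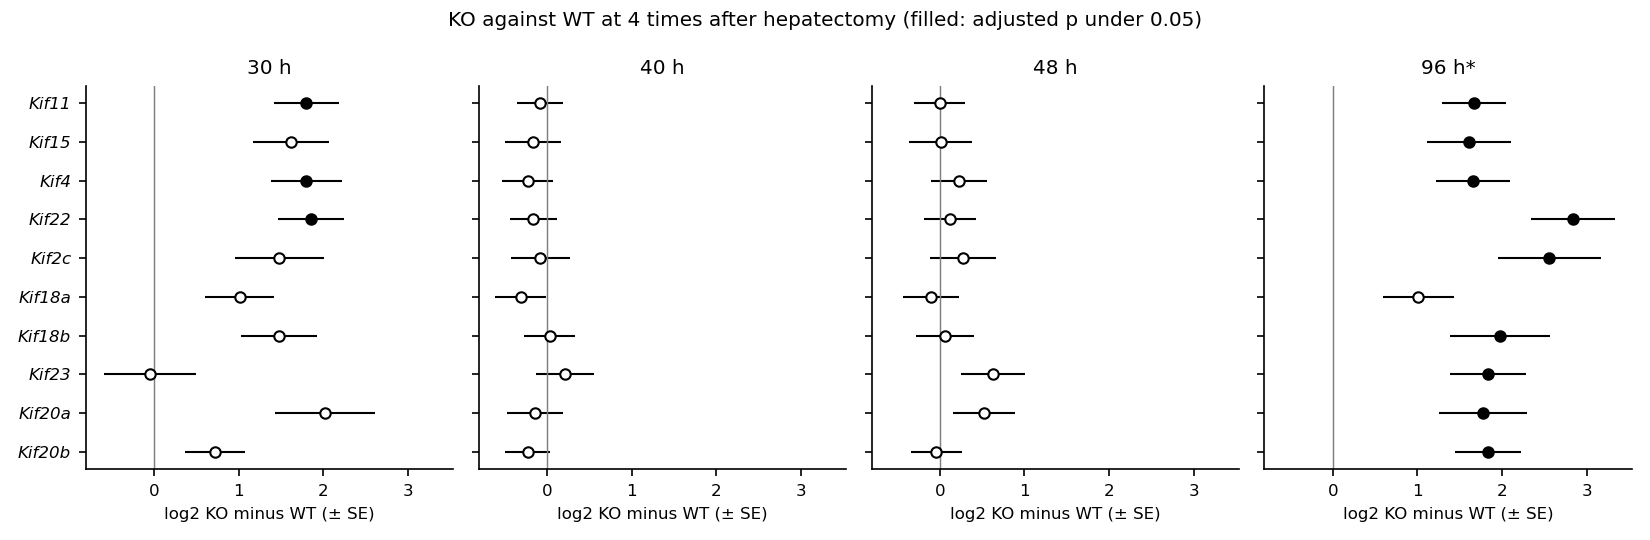
Difference between KO and WT for each kinesin gene at 30, 40, 48 and 96 h, as log2 KO minus WT from edgeR, with bars of 1 SE; filled points have an adjusted p under 0.05. Differences at 30 h reach log2 2.02, those at 40 and 48 h lie between -0.31 and 0.63, and the asterisk marks 96 h, where the libraries labelled WT go against their label.

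At 40 and 48 h no difference between the genotypes was detected. All 10 members overlapped between KO and WT at 40 h, where 5.0% of all genes lay wholly above WT in KO and 6.45% wholly below, and at 48 h (9.99% and 7.91%). At either time edgeR called 0, with 0 at an unadjusted p under 0.05 and 0 by DESeq2 (0.142% of all genes were called by edgeR at 40 h and 0.135% at 48 h). The differences at 40 h ran from log2 -0.31 to 0.21 with a median of -0.15 and SE of 0.27 to 0.35, against a median of -0.03 over all genes. Those at 48 h ran from log2 -0.10 to 0.63 with a median of 0.09 and SE of 0.30 to 0.39, against 0.02 over all genes. The highest single values of Kif20a and Kif23 were both in KO 48 h replicate 2, at 116 and 25.3 CPM.

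Whether the genotype difference at 40 h itself differed from that at 30 h was tested in the same edgeR fit. The change was downward in 9 of 10 members, with a median of log2 -1.68 (-0.03 over all genes), and edgeR called 1 of 10, against 0.554% of all genes called lower. That gene was Kif22 (log2 -2.02 ± 0.48, adjusted p = 0.0377). The call was lost with a replicate block (log2 -1.97, adjusted p = 0.0726) and without the filter on low counts (log2 -2.01, adjusted p = 0.0567). Kif11 (log2 -1.88 ± 0.47, adjusted p = 0.0541) and Kif4 (log2 -2.04 ± 0.51, adjusted p = 0.0549) fell short, and Kif23 was at log2 0.26 ± 0.64. Kif22 was not called without any of 8 of the 11 libraries in this contrast, namely KO 30 h replicates 2 (log2 -2.12) and 3 (-1.74), WT 30 h replicates 2 (-2.06) and 3 (-1.93), KO 40 h replicates 1 (-1.91) and 2 (-1.99) and WT 40 h replicates 1 (-1.79) and 3 (-2.14). A joint edgeR test of all 7 differences between the time courses called Kif22 (adjusted p = 0.011), Kif11 (adjusted p = 0.0262) and Kif4 (adjusted p = 0.0467), against 1.41% of all genes. Without the libraries of 96 h it called 0 of 10 and 3 genes in all, so that these calls rest on the time whose labels are in doubt.

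At 96 h the genes were far below their peak, and most were lower in the libraries labelled WT. Kif11 was at 3.42, 5.59 and 6.08 CPM in libraries labelled KO and 2.56, 1.41 and 0.709 CPM in those labelled WT. Kif22 was at 1.26, 2.34 and 4.14 CPM in libraries labelled KO and 0.548, 0.148 and 0.355 CPM in those labelled WT, and Kif2c at 0.991, 1.95 and 4.21 CPM in libraries labelled KO and 0.426, 0.445 and 0.355 CPM in those labelled WT. None of these 3 genes overlapped between the labels. Of the 10 members, edgeR called 9 higher in libraries labelled KO (7.22% of all genes were), by log2 1.61 ± 0.50 for Kif15 (adjusted p = 0.0268) to 2.84 ± 0.50 for Kif22 (adjusted p = 0.00032). Kif18a was not called (log2 1.01 ± 0.42, adjusted p = 0.104). An edgeR fit on the 96 h libraries alone called 2 members in place of 9, and limma called 1 on log2(FPKM + 1) and 5 on log2(FPKM + 0.1) with no filter. The members that did not overlap between the labels numbered 8, against 12.2% of all genes.

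The libraries labelled KO at 96 h also differed in some marker levels. The summed endothelial, stellate, lymphocyte, erythroid and cholangiocyte markers overlapped between the labels. The 6 hepatocyte markers summed to 189000 to 321000 CPM in libraries labelled KO and 93500 to 162000 CPM in those labelled WT. The 6 Kupffer cell markers summed to 346 to 597 CPM in libraries labelled KO and 189 to 267 CPM in those labelled WT, and the 6 markers of neutrophils and monocytes to 4.81 to 34.7 CPM in libraries labelled KO and 2.08 to 3.47 CPM in those labelled WT, where Mpo was at 0. Their part in the result was not tested. Without the library labelled KO replicate 3, or without the library labelled WT replicate 2, edgeR called 5 members in place of 9. Kif15, Kif18b and Kif20a were lost in both cases, at log2 1.14, 1.26 and 0.91 in the first and 1.67, 2.1 and 1.76 in the second, with Kif2c lost only in the first (1.88) and Kif4 only in the second (1.49). Kif15 (1.43) was also lost without the library labelled WT replicate 1, and Kif18b (1.57), Kif20a (1.59) and Kif4 (1.37) without the library labelled WT replicate 3. Against baseline, edgeR called all 10 higher in libraries labelled KO (21.9% of all genes) and 1 of 10, Kif15, in those labelled WT (12.8%). That call of Kif15, from 6 to 8 counts per library, was lost without WT baseline replicate 1.

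At 7 days the genes were far below their peak but above baseline in many libraries. Their summed level was 6.2 to 10.3 CPM in KO and 7.21 to 16.6 CPM in WT, against 3.35 to 4.02 CPM in KO and 3.82 to 4.08 CPM in WT at baseline. Every 7 day library lay above every baseline library for 6 of 10 members in KO (21.9% of all genes) and for 9 of 10 in WT (10.9%). The median difference was log2 1.19 in KO and 1.7 in WT, against -0.002 and -0.011 over all genes, but few members passed the adjusted test. At 7 days Kif22 was at 1.83 and 1.15 CPM in KO and 1.55, 2.45 and 2.24 CPM in WT, against at most 0.563 CPM in KO and 0.803 CPM in WT at baseline. It was called higher than baseline by edgeR in KO (log2 2.02 ± 0.58, adjusted p = 0.0332) and in WT (log2 1.95 ± 0.48, adjusted p = 0.0188). Kif20b was called in KO as well (log2 1.96 ± 0.55, adjusted p = 0.0309), from 1.77 and 1.08 CPM at 7 days. That makes 2 of 10 members in KO (3.06% of all genes) and 1 of 10 in WT (2.25%). Both counts dropped to 0 without a single library: in KO without baseline replicate 2 or 3 or without 7 day replicate 1 or 3, and in WT without baseline replicate 2 or 3 or without 7 day replicate 2 or 3, and the WT count was 4 without 7 day replicate 1. Between the genotypes edgeR and DESeq2 called 0 members at 7 days, where Kif11 had an unadjusted p under 0.05 (0.938 and 1.11 CPM in KO, 1.24, 3.45 and 1.79 CPM in WT), and 0 at 4 weeks, with none at an unadjusted p under 0.05 (0.135% of all genes were called at 7 days and 0.22% at 4 weeks). The estimated difference at 7 days was negative (lower in KO) in 8 of the 10 members. Its median was log2 -0.51, with SE of 0.45 to 0.72, against 0.001 over all genes. At 4 weeks the sum was 4.46 to 6.93 CPM in KO and 3.16 to 8.7 CPM in WT. No member was then called against baseline in either genotype by edgeR or DESeq2 (4.29% of all genes were called higher in KO and 0.433% in WT), and in KO Kif22 and Kif18a had an unadjusted p under 0.05.

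Levels of different genes can be compared only per length, for which the authors' FPKM values were used. At 30 h Kif22 led in both genotypes, with 3.66 ± 0.946 FPKM in KO (SD, n = 3) and 0.923 ± 0.0408 FPKM in WT (n = 2). It led at 40 h too, with 13.5 ± 2.62 FPKM in KO and 15.1 ± 4.15 FPKM in WT (n = 3 each), followed by Kif20a at 11.1 ± 4.22 FPKM in KO and 11.8 ± 1.88 FPKM in WT, which is within the spread. At 48 h Kif20a led with 31.8 ± 10.7 FPKM in KO (n = 3) and 21.2 ± 11.4 FPKM in WT (n = 2), and Kif22 followed with 24.0 ± 4.31 FPKM in KO and 20.7 ± 11.2 FPKM in WT, again within the spread. Kif15 was lowest at 48 h, at 1.48 ± 0.0524 FPKM in KO and 1.41 ± 0.519 FPKM in WT, below every library of Kif20a, Kif22, Kif2c, Kif11 and Kif4. Kif20b took the second place by FPKM in WT at 30 h (0.708 ± 0.0611 FPKM) but the sixth in KO (1.25 ± 0.11 FPKM). In WT both of its libraries lay above both of Kif11 (0.665 to 0.751 against 0.427 to 0.61 FPKM). In KO all of them lay below all of Kif11 (1.15 to 1.37 against 1.67 to 2.18 FPKM) and of Kif4 (1.46 to 2.14 FPKM). Kif20b overlapped with Kif4 in WT and with Kif2c and Kif20a in KO. The change of place was not tested.

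Over the 16 group means of log2 CPM, each member followed the mean of the other 9 closely, with Pearson's r from 0.941 for Kif23 and 0.97 for Kif15 to 0.995 for Kif11, Kif2c and Kif18b. Genes outside the set were ranked by likeness to the members' mean over the same 16 groups, leaving out Gm and Rik names and IDs without a symbol. The first 8 were Smc4 (r = 0.998), a subunit of condensin, Ube2c (0.997), an enzyme that marks cyclins for destruction, Ckap2l (0.997), and Cip2a, Ccna2, Aspm, Tacc3 and Parpbp (0.996 each). Aspm and Tacc3 are proteins of the spindle and its poles, and Ccna2 is cyclin A2. Most of the groups are low in all these genes and 4 are high, so a high r is easily reached.

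Of a list of 22 other genes of the spindle, its kinases and their regulators, most rose with the kinesins. At 48 h edgeR called 20 of the 22 higher than baseline in KO (19.0% of all genes) and 20 in WT (15.6%). The lowest differences were log2 -0.04 in KO and 0.03 in WT. Against WT at 30 h, edgeR called 13 of the 22 higher in KO (0.873% of all genes) and 0 lower, with a median of log2 1.72. They included Plk1, a kinase that drives mitosis, at log2 2.51 ± 0.63 (adjusted p = 0.0438), and Prc1, the partner that Kif4 and Kif20a meet at the central spindle, at log2 2.30 ± 0.42 (adjusted p = 0.00478). Aurkb, the kinase of the passenger complex that Kif20a carries, was higher by log2 1.99 ± 0.36 (adjusted p = 0.00478). At 40 h and at 48 h edgeR called 0 of the 22 between the genotypes. Of 21 kinesins and light chains that carry cargo, 18 passed the filter, and 0 of the 18 were called between KO and WT at 30 h, with a median of log2 -0.01. At 40 h against baseline edgeR called 4 of the 18 higher and 5 lower in KO, where 17.9% of all genes were higher and 17.7% lower, and 3 higher and 2 lower in WT, where 19.2% were higher and 17.3% lower. In WT both shares were below those of all genes, and in KO both were above them, on counts of few genes. Kif1b, a motor of organelle transport, was lower at 40 h than at baseline by log2 0.83 ± 0.14 in KO (adjusted p = 1.41e-05) and by 0.74 ± 0.14 in WT (adjusted p = 7.85e-05). Of the 12 replication genes, edgeR called 5 higher in KO than in WT at 30 h, led by Rrm2, a subunit of ribonucleotide reductase, at log2 2.45 ± 0.33 (adjusted p = 0.000242). At 96 h edgeR called 18 of the 22 spindle genes higher in libraries labelled KO, against 7.22% of all genes. Among them was Racgap1, the partner of Kif23 in centralspindlin, at log2 2.77 ± 0.42 (adjusted p = 6e-05).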

How the data were processed

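Poly(A) RNA of mouse liver was sequenced in 45 libraries. The gene counts were deposited by the authors as whole numbers per Ensembl gene with no normalization, and the FPKM values as a second table, scaled by the authors for transcript length and library size. FastQC 0.11.5, Trimmomatic, TopHat2 2.1.0, Cufflinks 2.2.1, HTSeq and DESeq2 are named, with build mm10, per the submitters' processing notes; parameters, annotation and strand setting were not given in the sources used here. FPKM entries that repeat an ID (66 entries of 49 IDs) were summed, and 103 counted IDs had no symbol.

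Titles gave the genotype, time and replicate of each library. Counts were filtered with filterByExpr of edgeR 4.0.16 in R 4.3.3 (14090 genes, at least 99.944% of the counts of each library) and scaled by TMM. All 45 libraries entered 1 robust quasi-likelihood fit in edgeR, with a mean per group (16) and no covariate; the residual df was 29, the prior df 5.94 and the common dispersion 0.0322. P-values were adjusted by Benjamini-Hochberg over all tested genes, and genes under 0.05 were called. SE was computed from the log2 difference and its F statistic. Comparisons were KO against WT at each condition, each time against baseline, the steps between 24, 30, 40 and 48 h, and the change of the genotype difference between 30 and 40 h and over all times. The kinesins and the other gene lists were chosen with earlier results of these data known. All 10 kinesins were named, with up to 4 called genes per other list and the 8 genes most like the kinesins' mean log2 CPM (prior count 3). Gm and Rik names and IDs without a symbol were left out of those 8. Alternatives were DESeq2 1.42.0, RLE size factors, no filter, a replicate block, fits without the 96 h libraries or on 1 condition alone, limma 3.58.1 on log2(FPKM + 0.1) and log2(FPKM + 1) with and without a filter (0.5 FPKM in 2 libraries), and leaving out each library. The edgeR, DESeq2 and limma fits were tested on simulated data for KO against WT at 30 h. No pair of libraries held identical values. Same-numbered libraries were to be taken as pairs only if every correlation of their deviations from group means was over 0.1. This was not reached between KO and WT. Between baseline and 40 h it was missed in KO (-0.01, -0.064 and 0.159) and narrowly in WT (0.157, 0.09 and 0.102). Shared mice at baseline and 40 h are therefore not excluded. The level of 1 marker gene is not reported here.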

Additional observations from a re-analysis of the deposited data

Results flagged for a closer look

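Kif22, a chromosome arm motor, is listed because its genotype difference changed between times: the difference between KO and WT was lower at 40 h than at 30 h by the test of that change itself, at log2 -2.02 ± 0.48 (edgeR, adjusted p = 0.0377), with means of 29.2 CPM in KO and 32.7 CPM in WT at 40 h, and of 8.17 CPM in KO and 2.26 CPM in WT at 30 h. That call was lost with a replicate block (adjusted p = 0.0726), without the filter on low counts (adjusted p = 0.0567) and without any of 8 of the 11 libraries. For 3 kinesins the joint edgeR test found time courses that differed between the genotypes: Kif22 (adjusted p = 0.011), Kif11 (adjusted p = 0.0262) and Kif4 (adjusted p = 0.0467). That test includes 96 h, where Kif22 averaged 2.58 CPM in libraries labelled KO and 0.35 CPM in those labelled WT, and without the 96 h libraries it called none of the 3. No group held more than 3 libraries, so the libraries of a group could not be screened for outliers.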

How the results depend on the processing

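Over 30 counts of called kinesins, RLE size factors changed none by over 1.5 times (it moved the median log2 of all genes by at most 0.03). DESeq2 called 6 in place of 3 for KO against WT at 30 h, 4 in place of 2 for KO and 4 in place of 1 for WT at 7 days against baseline, 4 in place of 1 for the change of the genotype difference from 30 to 40 h, and 7 in place of 3 in the joint test. Without a filter on low counts, KO at 7 days had 1 call and the change from 30 to 40 h 0. Without the 96 h libraries, WT at 7 days had 2, the change from 30 to 40 h 3 and the joint test 0. With limma on log2(FPKM + 0.1), KO at 7 days had 1 call, WT at 7 days 2 and libraries labelled WT at 96 h against baseline 0 in place of 1. For KO against WT at 96 h, where 9 were called, fits on that condition alone gave 2, log2(FPKM + 1) gave 1 and limma with no filter gave 5. The fit with a replicate block called 0 in place of 1 for the change from 30 to 40 h and moved no other of the 30 counts by over 1.5 times. Correlations of same-numbered libraries ran from -0.306 to 0.306 between KO and WT. Between 40 h and baseline they ran from -0.064 to 0.159 in KO and from 0.09 to 0.157 in WT. In WT the differently numbered libraries of these 2 conditions were at -0.109 to -0.004. The numbers were not taken to pair libraries, but shared mice at baseline and 40 h are not excluded.

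Leaving out 1 library at a time gave 0 to 4 calls for KO against WT at 30 h, 5 to 9 at 96 h, 0 to 2 for KO and 0 to 4 for WT at 7 days against baseline, 0 to 1 for WT at 96 h against baseline, 0 to 2 for KO at 48 h against 40 h, 0 to 3 for the change from 30 to 40 h and 1 to 4 in the joint test. Kif23 at 30 h, at log2 -0.05, turned to 0.3 with limma on log2(FPKM + 0.1), with and without a filter, and to 0.03 on log2(FPKM + 1), and ran from -0.81 to 2.43 with 1 library left out. Its change from 30 to 40 h ran from -2.18 to 1.02. Kif23 had 2 and 26 counts in the WT libraries at 30 h, and the direction there turns on 1 library. Counts of 20 or fewer per library at baseline limit every fold against it. The causes of these changes were not tested.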
